A study of Mus musculus with 9 samples.

Results

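The 6 gene loci whose DNA methylation read lower in the nucleus accumbens of stress-susceptible mice described here are Gpr153, Arntl2, Gm30875, Rnf213, Dnah11 and 1700113H08Rik. They are 6 of 48318 gene loci measured, and they were selected on their measured values, for the smallest unadjusted p among features that read lower in Susceptible libraries. Gpr153 was chosen by a 1-kb tile, Arntl2 and Gm30875 by the CpG-richer end of the gene, and Rnf213, Dnah11 and 1700113H08Rik by a single CpG. The group difference that chose each locus is therefore given as a description, with no test.

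Whole-genome bisulfite libraries came from nucleus accumbens punches of male C57BL/6J mice, a reward region of the ventral striatum, in a chronic social defeat design. The defeat schedule in the labels is 10 daily encounters with an aggressive CD1 retired breeder, begun at 8 weeks of age. The comparison is between 5 libraries with the phenotype Control (numbered 2, 3, 4, 5 and 8) and 4 with the phenotype Susceptible (numbered 2, 3, 6 and 7). No transgene or second strain distinguishes the groups, the labels attach the same defeat text to Control libraries, and they do not say whether a library is 1 animal or a pool, so the spread given here is that between libraries and may be technical. Values with ± are means and SD over n = 5 Control and n = 4 Susceptible libraries, with Control given first unless the group is named. A punch mixes cell types, so a change in cell makeup and a change within cells cannot be told apart.

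Bisulfite sequencing reads a methylated cytosine as C and an unmethylated one as T, and does not separate methylated from hydroxymethylated cytosine. Each read over a cytosine is a call, and the methylation level is the percentage of calls that are C. Most CpGs in a mammalian genome are highly methylated, while CpG-rich stretches at gene starts are usually low, so levels change steeply at the edges of such stretches. A level summed over a window that crosses an edge depends on the methylation of its CpGs and on how the calls are spread over them.

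The libraries listed 313475624 to 570984634 calls at 13446563 to 22631489 cytosines, and every listed cytosine had at least 10 calls. Every Susceptible library held more listed calls than every Control library. Over the whole genome no feature passed an adjusted p of 0.05 in the quasi-binomial fit moderated with limma: 0 of 1041809 tiles (45605 at an unadjusted p under 0.05), 0 of 43264 gene ends (2001 unadjusted), 0 of 48318 gene loci (2373 unadjusted) and 0 of 5627449 CpGs (455006 unadjusted). The smallest adjusted p was 0.103 for tiles, 0.0596 for gene ends, 0.938 for gene loci and 0.614 for CpGs.

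The start regions of 5 members are shown because they show how differently CpGs are packed at these genes; the Arntl2 sequence belongs to a start inside the gene, not to the annotated start in its leading window. The sequences are from RefSeq (GRCm38.p6), 250 bases before to 50 bases after a start, 5′ to 3′ on the gene's strand, with each CpG in capitals. Of the 6 members, 5 matched an entry of the promoter table. Gpr153 has 2 overlapping entries, and the one with more CpGs is shown; the other, chr4:152273862-152274161, lies at the annotated start of the gene, holds 35 CpGs and read 3.30% ± 4.74 and 1.52% ± 0.738. The positions are chr4:152274112-152274411 (plus strand) for Gpr153, chr6:146805280-146805579 (plus) for Arntl2, chr11:119389849-119390148 (plus) for Rnf213, chr12:118198994-118199293 (minus) for Dnah11 and chr10:87057796-87058095 (plus) for 1700113H08Rik.
Gpr153: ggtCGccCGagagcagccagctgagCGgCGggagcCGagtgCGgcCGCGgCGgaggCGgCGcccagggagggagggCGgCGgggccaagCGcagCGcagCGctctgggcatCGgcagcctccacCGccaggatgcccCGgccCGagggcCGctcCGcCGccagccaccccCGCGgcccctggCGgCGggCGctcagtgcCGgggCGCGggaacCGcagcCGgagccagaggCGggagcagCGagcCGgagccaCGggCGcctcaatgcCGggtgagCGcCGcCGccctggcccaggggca
Arntl2: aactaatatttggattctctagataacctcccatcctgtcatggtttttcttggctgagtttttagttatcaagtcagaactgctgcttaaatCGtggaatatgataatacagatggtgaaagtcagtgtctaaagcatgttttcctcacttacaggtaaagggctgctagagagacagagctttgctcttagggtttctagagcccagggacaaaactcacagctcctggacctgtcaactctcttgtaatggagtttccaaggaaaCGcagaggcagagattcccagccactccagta
Rnf213: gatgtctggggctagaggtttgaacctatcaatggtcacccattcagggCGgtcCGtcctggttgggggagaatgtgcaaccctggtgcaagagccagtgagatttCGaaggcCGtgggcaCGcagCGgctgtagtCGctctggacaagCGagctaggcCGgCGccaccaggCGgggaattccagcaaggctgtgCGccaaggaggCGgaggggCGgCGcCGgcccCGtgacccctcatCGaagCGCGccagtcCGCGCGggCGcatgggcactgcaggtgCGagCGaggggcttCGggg
Dnah11: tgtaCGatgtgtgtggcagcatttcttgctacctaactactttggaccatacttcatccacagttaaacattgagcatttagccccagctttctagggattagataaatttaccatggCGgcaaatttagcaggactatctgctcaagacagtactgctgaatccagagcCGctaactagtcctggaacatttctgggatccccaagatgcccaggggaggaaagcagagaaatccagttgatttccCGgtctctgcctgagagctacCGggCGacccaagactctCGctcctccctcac
1700113H08Rik: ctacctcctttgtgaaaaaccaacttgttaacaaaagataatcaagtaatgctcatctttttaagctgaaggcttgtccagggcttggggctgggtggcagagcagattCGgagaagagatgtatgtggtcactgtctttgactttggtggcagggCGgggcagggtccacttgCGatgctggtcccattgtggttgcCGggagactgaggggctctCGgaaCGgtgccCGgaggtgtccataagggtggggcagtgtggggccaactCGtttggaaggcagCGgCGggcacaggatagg

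The Gpr153 sequence holds 42 CpGs, more than 97.0% of the 32851 promoter windows in the table, and its level was 1.12% ± 1.32 in Control and 1.27% ± 0.475 in Susceptible libraries. The Rnf213 sequence holds 27 CpGs and read 9.71% ± 4.66 and 7.34% ± 3.04. The Dnah11 sequence holds 7 CpGs and read 5.51% ± 5.40 and 6.08% ± 5.78. The 1700113H08Rik sequence holds 10 CpGs and read 22.0% ± 11.7 and 17.7% ± 2.67. The Arntl2 sequence, from a start inside the gene, holds 2 CpGs with as few as 15 calls in a library and read 69.9% ± 19.0 and 83.6% ± 2.33. In all 5 of these start regions the ranges of the groups overlapped. No promoter window of the table overlapped any of the 6 leading features.

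Gpr153 encodes an orphan receptor of the rhodopsin-like G protein-coupled family. Its leading window is the tile chr4:152282001-152283000, inside the gene (chr4:152274106-152285342), with its middle 8394 bp downstream of the low-coordinate bound and 74.7% of the way along; exons and introns were not used here. The levels in Control libraries 2, 3, 4, 5 and 8 were 66.7%, 67.7%, 68.8%, 71.3% and 72.5%. In Susceptible libraries 2, 3, 6 and 7 they were 56.0%, 56.2%, 57.3% and 54.7%. The groups did not overlap, and the means were 69.4% ± 2.43 and 56.1% ± 1.07, a difference of -13.3 points over 33 CpGs and 961 to 1974 calls a library.

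Arntl2 encodes a bHLH-PAS transcription factor, a paralogue of the clock factor ARNTL (BMAL1) that pairs with CLOCK. Its leading window is the gene's low-coordinate end, chr6:146793729-146795729, 1000 bp on each side of the annotated start of the plus-strand gene (chr6:146794729-146833529). Control libraries 2, 3, 4, 5 and 8 read 59.2%, 62.9%, 67.7%, 63.1% and 71.0%. Susceptible libraries 2, 3, 6 and 7 read 51.4%, 49.9%, 52.4% and 49.5%, all under every Control library. The means were 64.8% ± 4.61 and 50.8% ± 1.37, a difference of -14.0 points over 39 CpGs and 657 to 1385 calls.

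Gm30875 is a predicted long noncoding RNA gene (chr11:79972995-79975189) with no strand in the tables used here. Its leading window is the high-coordinate end, chr11:79974189-79976189. Control libraries 2, 3, 4, 5 and 8 read 46.0%, 54.0%, 46.8%, 47.2% and 48.2%. Susceptible libraries 2, 3, 6 and 7 read 35.0%, 32.0%, 36.5% and 21.4%. The groups did not overlap, although Susceptible 7 lay well under the other Susceptible libraries, and the means were 48.4% ± 3.21 and 31.2% ± 6.82, a difference of -17.2 points over 53 CpGs and 472 to 2262 calls.

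Rnf213 encodes a very large E3 ubiquitin ligase with AAA+ ATPase domains, known as the moyamoya disease susceptibility gene and inducible by interferon. Its leading CpG is at chr11:119424124, 34174 bp inside the gene (chr11:119389950-119487418). Control libraries 2, 3, 4, 5 and 8 read 96.0%, 96.2%, 96.7%, 100% and 98.2%. Susceptible libraries 2, 3, 6 and 7 read 60.9%, 72.7%, 56.0% and 73.7%, well under the lowest Control library. The means were 97.4% ± 1.69 and 65.8% ± 8.77, a difference of -31.6 points on 19 to 110 calls a library.

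Dnah11 encodes an outer-arm dynein heavy chain, a motor of motile cilia. Its leading CpG is at chr12:118188490, 10552 bp from the start of the minus-strand gene (chr12:117877982-118199043). All 218 calls in the 5 Control libraries were methylated, which gives 100% in each. Susceptible libraries 2, 3, 6 and 7 read 73.6%, 77.6%, 60.7% and 80.0%, with 46 of 180 calls unmethylated. The Susceptible mean was 73.0% ± 8.58 and the difference was -27.0 points on 28 to 54 calls a library.

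The RIKEN cDNA gene 1700113H08Rik is annotated as protein coding at chr10:87058046-87230599. Its leading CpG is at chr10:87099253, 23.9% of the way along the gene. All 332 Control calls were methylated, again 100% in each of the 5 libraries. Susceptible libraries 2, 3, 6 and 7 read 80.6%, 77.8%, 48.1% and 78.8%, with 37 of 136 calls unmethylated. Susceptible 6, on 27 calls, lay far under the other Susceptible libraries, and the group mean was 71.3% ± 15.5, a difference of -28.7 points.

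**Figure D1:**
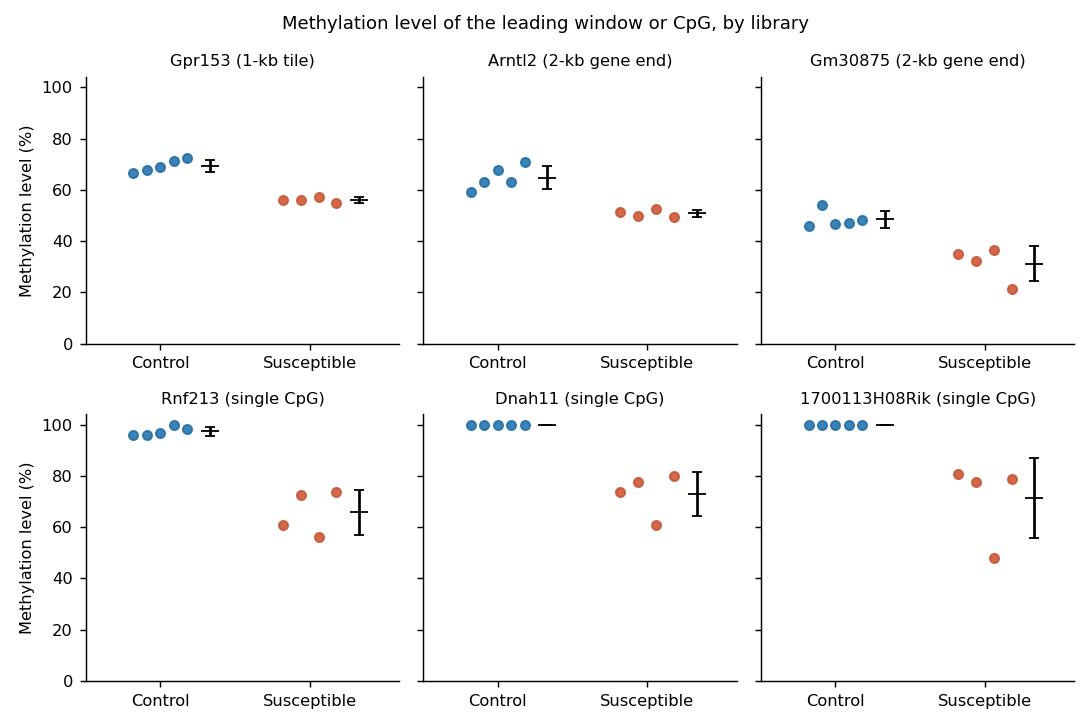
Methylation level (%) of the leading window or CpG of each member in every library: points are libraries, and the bar beside each group is its mean and SD (5 Control, 4 Susceptible). In each panel all Susceptible points lie under all Control points; the loci were chosen by p from this same contrast.

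The windows of Gpr153, Arntl2 and Gm30875 each crossed from highly methylated CpGs to CpGs with low methylation, and the calls of the Susceptible libraries lay more on the low side. In the Gpr153 tile, 12 CpGs had a mean level under 50% over the libraries and 21 a level of 50% or more. The low CpGs held 22.0%, 20.2%, 20.7%, 18.3% and 19.9% of the tile's calls in Control libraries 2, 3, 4, 5 and 8. They held 34.1%, 36.3%, 32.2% and 30.6% in Susceptible libraries 2, 3, 6 and 7. No Control library reached the lowest Susceptible library, and the means were 20.2% ± 1.35 and 33.3% ± 2.44.

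In the Arntl2 window, 16 low CpGs held 36.0%, 33.2%, 34.4%, 39.0% and 20.2% of the calls in the Control libraries, in the same order, and 48.7%, 47.2%, 47.2% and 47.0% in the Susceptible libraries. The 31 low CpGs of the Gm30875 window held 46.1%, 34.6%, 44.3%, 48.3% and 46.3% of the calls in Control and 64.2%, 64.2%, 58.4% and 69.5% in Susceptible libraries. In both windows the groups were again fully apart. The share of the listed CpGs that were low was similar in the groups: 36.7% ± 0.522 and 36.4% ± 0 at Gpr153, 43.3% ± 7.18 and 43.0% ± 2.04 at Arntl2, and 55.9% ± 6.92 and 60.5% ± 1.14 at Gm30875.

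**Figure D2:**
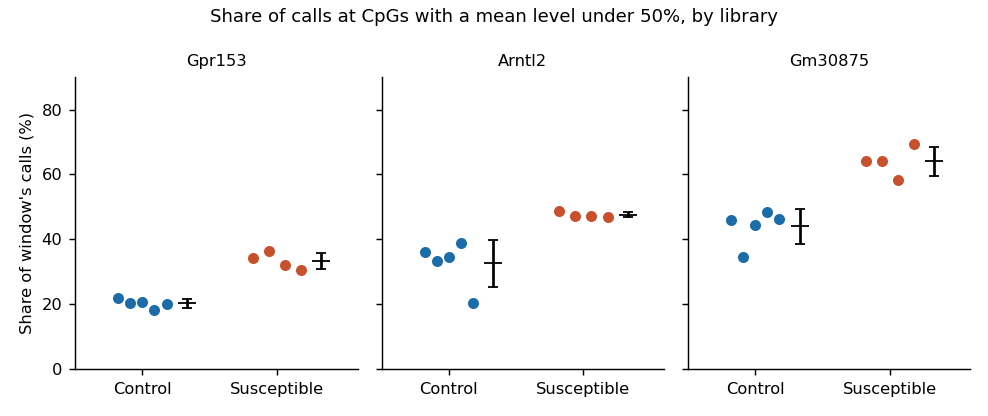
Share (%) of each window's calls that fell on CpGs with a mean level under 50% over the libraries, with points for libraries and a bar for the mean and SD of each group (5 Control, 4 Susceptible). The Susceptible points lie above the Control points at all 3 windows, with Gpr153 means of 20.2% and 33.3%. The windows were chosen by a level summed over these same calls.

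Within the low and the high CpGs the groups differed much less. With each CpG weighted equally, the low CpGs of Gpr153 read 15.4% ± 7.35 and 18.7% ± 2.63, and the high CpGs 81.1% ± 4.95 and 75.5% ± 3.86. The low CpGs of Arntl2 read 12.1% ± 8.33 and 11.4% ± 3.99, and the high ones 87.5% ± 3.39 and 88.3% ± 1.51. Those of Gm30875 read 4.43% ± 3.11 and 5.20% ± 3.46 at the low CpGs, and 81.0% ± 4.42 and 79.8% ± 6.86 at the high ones. The groups overlapped in all 6 of these comparisons, and at the low CpGs the Susceptible mean was the higher one at Gpr153 and Gm30875.

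The 200-bp bins show where the calls lay. The last 200 bp of the Gpr153 tile (chr4:152282801-152283000, 15 of its 33 CpGs) read 26.6% ± 4.08 in Control and 28.4% ± 0.834 in Susceptible libraries, but held 17.3% to 28.2% of the tile's calls in Control and 40.6% to 47.6% in Susceptible libraries. In the Arntl2 window, the bin chr6:146795401-146795600 read 11.5% ± 15.3 and 8.82% ± 3.42 and held 16.5% of Control and 29.0% of Susceptible calls on average, with overlapping ranges of 9.23% to 23.5% and 21.2% to 34.7%. The bin chr6:146794201-146794400, at 94.7% and 93.7%, held 27.7% of Control and 16.4% of Susceptible calls, also with overlap (16.6% to 43.9% and 14.9% to 19.1%). In the Gm30875 window, the bin chr11:79974801-79975000 read 87.9% ± 4.89 and 80.1% ± 7.15 and held 30.6% to 44.5% of Control but 14.2% to 24.2% of Susceptible calls. The bin chr11:79974201-79974400, with 18 CpGs at 1.14% and 1.83%, held 24.3% of Control and 38.1% of Susceptible calls, with overlapping ranges of 11.9% to 36.5% and 34.4% to 43.7%. Mean levels also parted in some bins: chr11:79974601-79974800 read 51.6% ± 20.6 and 67.2% ± 18.4, higher in Susceptible libraries.

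**Figure D3:**
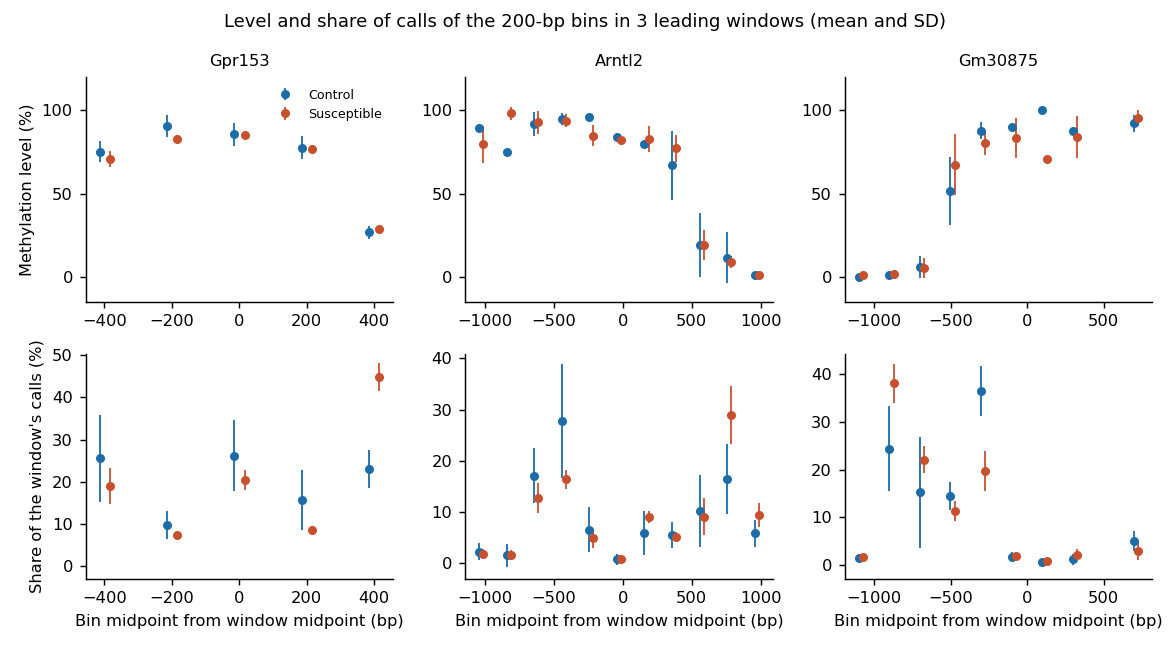
Methylation level (%, upper row) and share of the window's calls (%, lower row) of each 200-bp bin in the windows of Gpr153, Arntl2 and Gm30875, against the distance of the bin from the window's midpoint (bp). Points are group means (5 Control, 4 Susceptible) and lines the SD, drawn for levels only where every library of the group had calls; the right end of Gpr153 has similar levels and separate shares (23.0% and 44.8% of calls), while in other bins the mean levels part too, as in the Gm30875 bin at 51.6% and 67.2%.

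The size of the difference at these 3 windows followed the weighting. With each CpG weighted equally, it was -2.12 points at Gpr153 (57.0% ± 2.16 and 54.9% ± 2.27), 0.17 at Arntl2 (55.1% ± 7.34 and 55.3% ± 3.69) and -3.29 at Gm30875 (38.0% ± 5.98 and 34.7% ± 4.01), and the groups overlapped. Over CpGs listed in all 9 libraries, summing calls gave -14.8, -16.3 and -14.1 points, with the groups apart at Gpr153 and Arntl2 but overlapping at Gm30875 (61.8% and 47.8%). When those same CpGs were given the same weight in every library (their mean share of calls), a choice made after the data were seen, the groups overlapped. Gpr153 then read 63.8% ± 1.40 and 60.5% ± 2.89, Arntl2 57.1% ± 3.40 and 57.5% ± 1.35, and Gm30875 55.0% ± 4.53 and 55.6% ± 9.19, which are differences of -3.30, 0.37 and 0.61 points. Over the cytosines that both libraries of a pair listed, each weighted equally, the differences were -2.08, -0.51 and 0.79 points. The Susceptible library was lower in 12, 10 and 6 of 20 pairs. With calls summed over the cytosines listed in all 9 libraries, the differences were -14.05 (groups apart), -3.48 and -0.979 points. With these cytosines weighted equally they were -0.52, 1.66 and 3.37. These choices were also made after the data were seen.

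At Rnf213, Dnah11 and 1700113H08Rik the leading feature is a single CpG, so equal or common weights return the same value by construction and test nothing. Over the cytosines that both libraries of a pair listed, each weighted equally, the mean differences there were -32.9, -27.0 and -28.6 points. This is a description of the values that chose these CpGs.

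**Figure D4:**
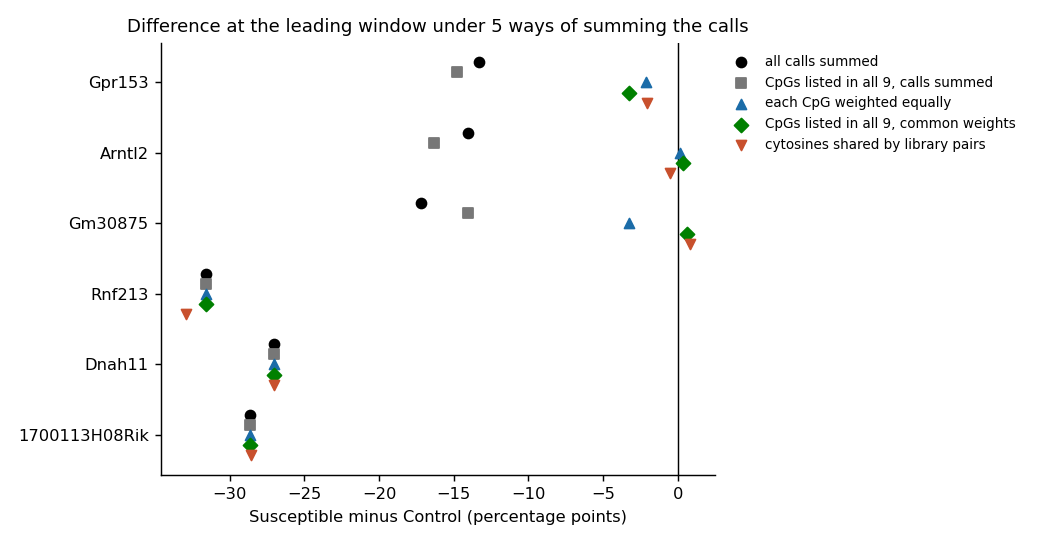
Difference between group means (Susceptible minus Control, percentage points) at each member's leading window or CpG under 5 ways of summing or weighting the calls, one symbol for each way. Cytosines shared by library pairs were weighted equally. The symbols of Gpr153, Arntl2 and Gm30875 spread from -17.2 to 0.79; a single CpG cannot be reweighted, so those of Rnf213, Dnah11 and 1700113H08Rik coincide by construction except for library pairs.

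Over all tiles tested, 10004 had every Susceptible library under every Control library when calls were summed (0.960%), and 10335 when CpGs were weighted equally (0.992%). Of the 2278 tiles that were lower by 10 points or more with no overlap, 66 had an equally weighted difference within 5 points of 0, and the Gpr153 tile is one of them. The median of those 2278 tiles was -12.8 points with calls summed and -11.7 with CpGs weighted equally, and 1092 of them (47.9%) kept separate groups with equal weights. Of all 10004 tiles, 4631 were separate under both weightings. The share of all autosomal calls that fell in 200-bp bins with 9 or more listed CpGs was 14.0% to 14.8% in Control and 14.6% to 15.5% in Susceptible libraries, and its part in the 3 windows was not tested.

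CpG by CpG, the windows were mixed. Of the 26 CpGs of the Gpr153 tile listed in all 9 libraries, 17 read lower and 9 higher in Susceptible libraries, with a median difference of -2.69 points. One of them, at chr4:152282123, had no overlap of groups (86.6% and 69.7%). At Arntl2, 6 of 12 such CpGs read lower and 6 higher (median -0.19 points), and at Gm30875 6 of 11 read lower and 5 higher (median -1.45 points), with no CpG free of overlap in either. The remaining 7, 27 and 42 listed CpGs of the 3 windows were missing from at least 1 library.

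More cytosines were listed in Susceptible libraries over the whole genome, 19705746 to 22631489 against 13446563 to 19536874 in Control. The window means were also higher in Susceptible libraries, 46.0 and 59.25 at Gpr153, 38.4 and 51.5 at Arntl2 and 45.4 and 70.0 at Gm30875. Whether the genome-wide excess accounts for that in the windows was not tested. At Gpr153, Control libraries listed 49, 46, 51, 36 and 48 cytosines and Susceptible libraries 65, 61, 57 and 54. At Gm30875, Control libraries listed 51, 46, 62, 23 and 45, and Susceptible libraries 75, 72, 67 and 66. The groups were apart at both, whereas at Arntl2 they met at 43, with 33 to 43 in Control and 43 to 60 in Susceptible libraries. The part of this listing in the differences was not tested beyond the weightings given above.

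At the loci as a whole, from 5 kb before to 5 kb after each gene, the share of a library's autosomal calls did not pass an exact permutation test for any of the 6 members (two-sided, adjusted p from 0.643 to 0.905). Gpr153 held 53.2 ± 6.31 calls per 1000000 in Control and 57.0 ± 3.39 in Susceptible libraries, and Gm30875 8.51 ± 0.794 and 8.74 ± 0.964. Counting listed cytosines in place of calls, Gm30875 passed (0.544 per 1000000 higher in Susceptible libraries, adjusted p = 0.0476 by the same exact permutation test), and the sign turned at Gpr153 (-0.468 in place of 3.71) and 1700113H08Rik (0.599 in place of -0.141), neither passing the test. The listed cytosines of Gm30875 include those of the window that chose it, whose level depends on which cytosines were listed. Nothing is therefore read from its p. With 126 assignments of libraries to groups, the smallest p that the exact permutation test can give is 0.00794.

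Both strands of the 3 windows read lower in Susceptible libraries, with unequal separation. At Gpr153 the forward strand read 61.6% ± 3.61 and 46.6% ± 4.14, and the reverse strand 76.9% ± 2.44 and 67.8% ± 4.71, with no overlap on either. At Arntl2 the forward strand differed by -13.5 points and the reverse by -13.8, and the groups overlapped on both. At Gm30875 the forward strand, at 25.3% ± 7.77 and 12.1% ± 4.38, did not overlap, while the reverse strand, at 62.1% ± 11.3 and 45.7% ± 9.73, did. The strands were listed over partly different CpGs. Cytosines listed in all 9 libraries numbered 13 forward and 9 reverse at Gpr153, 5 and 3 at Arntl2, and 0 and 8 at Gm30875. Strand levels and gaps therefore also depend on which CpGs were listed, and asymmetry within CpGs was not tested. The gap between strands (forward minus reverse) was tested between groups by an exact permutation test at these 3 windows, the only members with calls on both strands in every library. It differed by -5.96 points at Gpr153 (adjusted p = 0.524), 0.32 at Arntl2 (adjusted p = 0.960) and 3.21 at Gm30875 (adjusted p = 0.960). Leaving out each library gave -9.68 to -4.41 at Gpr153, -5.76 to 6.88 at Arntl2 and -1.83 to 8.20 at Gm30875. The lowest adjusted p among these, by the same exact permutation test, was 0.0536 at Gpr153 without Susceptible 2.

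At each single CpG 1 strand was listed in all 9 libraries and the other only in some. The less listed strand held up to 18 calls in a library at Rnf213, 14 at Dnah11 and 12 at 1700113H08Rik. Both strands together held 19 to 110, 28 to 54 and 21 to 166 calls. At Rnf213 the reverse cytosine was listed in all 9 libraries, at 98.1% ± 1.81 and 67.8% ± 6.34. Its forward cytosine was listed in 4 libraries, at 91.7%, 100% and 100% in Control 2, 5 and 8 and 27.3% in Susceptible 6. At Dnah11 the forward cytosine carried every Susceptible call, and the reverse one was listed only in Control 3 and Control 5, both at 100%. At 1700113H08Rik the forward cytosine was listed in all 9 libraries, and the reverse one at 100% in Control 3 and Control 8 and at 72.7% in Susceptible 3. Among all tested CpGs, 68.0% had exactly 1 strand listed in every library.

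Calls at 1 CpG give wide limits. Over the libraries, the lowest bound of an exact (Clopper-Pearson) 95% interval in Control and the highest in Susceptible libraries were 79.6% and 90.9% at Rnf213, 89.1% and 89.97% at Dnah11 and 83.9% and 92.5% at 1700113H08Rik. The intervals were separate in 14, 19 and 13 of 20 pairs of a Control and a Susceptible library, which describes the calls that chose these CpGs and supports nothing further. These intervals cover counting error only, since the calls carry no molecular identifiers.

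Full methylation in every Control library was a common starting point for CpGs that read lower. Of the tested CpGs, 82087 (1.46%) had every Susceptible library under every Control library, and 40.8% of those had all 5 Control libraries at 100%. All Control libraries were at 100% at 374278 CpGs, and at 8.95% of these all 4 Susceptible libraries were below 100%. All Susceptible libraries were at 100% at 110506 CpGs, and at 0.0959% of these all 5 Control libraries were below. The share of tested CpGs at exactly 100% ran from 25.2% to 59.3% in Control libraries, highest in Control 5 and Control 8, and from 16.2% to 26.6% in Susceptible libraries. The share at exactly 0% was also highest in Control 5 and Control 8, at 12.03% and 11.39%, against 4.92% to 7.66% in the other libraries. Median calls were 28 in Control 5 and 35 in Control 8, against 32 to 47 in the others. Susceptible 7, also with a median of 35, had 21.5% of CpGs at 100%, against 55.3% in Control 8. Dnah11 and 1700113H08Rik were at 100% in every Control library, and the part of depth or of Control 5 and Control 8 in this was not tested.

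The CpGs around the 3 single CpGs did not share their shift to the same degree. Within 1 kb of the Rnf213 CpG, 7 of 10 CpGs listed in all libraries read lower and 3 higher (median -2.70 points). The nearest, 41 bp away, read 65.6% and 65.2%, and the lowest, 77 bp away, read 97.6% in Control and 83.1% in Susceptible libraries. Around the Dnah11 CpG, 6 of 8 read lower (median -8.57 points), while the CpG at chr12:118189349 read higher (76.4% and 89.4%). The closest CpG, at chr12:118188536, was listed in 3 Control and 4 Susceptible libraries and read 36.7% and 69.0%, the other way from the leading CpG. The 4 CpGs between chr12:118188343 and chr12:118188428, just before it, read 65.6%, 60.9%, 36.0% and 50.9% in Control and 61.0%, 47.9%, 29.4% and 38.5% in Susceptible libraries, all lower but each with overlap. Around the 1700113H08Rik CpG, 3 of 7 read lower and 4 higher (median 0.36 points), and the CpG 29 bp away read 84.8% and 84.2%. None of the 25 neighbours listed in all libraries separated the groups.

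**Figure D5:**
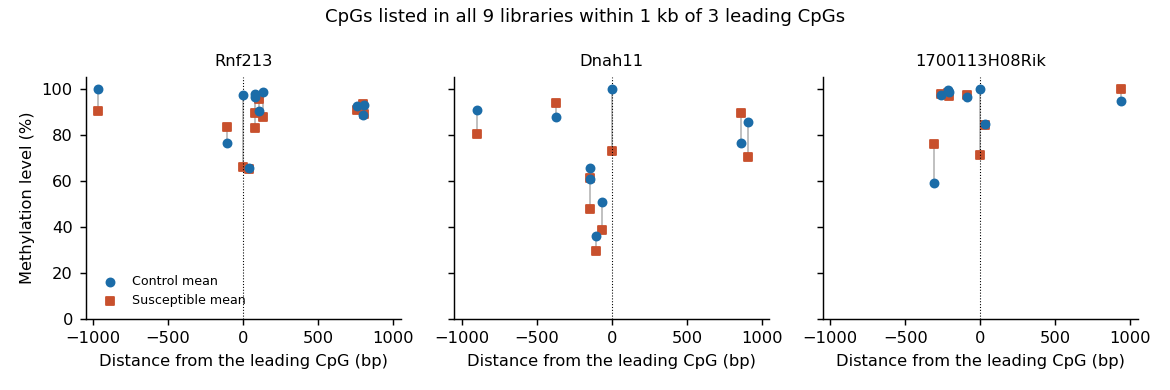
Mean methylation level (%) of CpGs listed in all 9 libraries against their distance (bp) from the leading CpG of Rnf213, Dnah11 and 1700113H08Rik, with circles for the 5 Control and squares for the 4 Susceptible libraries and a line joining the means of a CpG. At distance 0 the means differ by -31.6, -27.0 and -28.7 points; the neighbouring CpGs have median differences of -2.70, -8.57 and 0.36 points.

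The shifted stretch was taken as the run of 200-bp bins around the leading feature whose means differed by -5 points or lower. It was 200 bp wide at Gpr153, Gm30875 and 1700113H08Rik, 400 bp at Dnah11 and 1000 bp at Rnf213, and none of the 6 bins of the Arntl2 window with 20 calls in every library reached it. Over the whole Arntl2 locus 3 of 82 bins differed by -10 points or lower and 2 by 10 or more. Of the Arntl2 bins missing from 1 library, chr6:146794401-146794600 read 96.3% and 84.8% and chr6:146793601-146793800, with 1 CpG, 89.3% and 79.5%. The bin chr6:146794801-146795000 went the other way, at 79.6% and 82.7%. The widest, at Rnf213, consisted of 3 bins around bins that did not have enough calls in every library. It fell to 0 bp without Control 4, Control 8 or Susceptible 6 and with cytosines of at least 20 calls, to 200 bp without Control 2 or Susceptible 3, and to 400 bp without Control 5 or Susceptible 7. The lowest bin of each stretch differed by -8.10 points at Gpr153, -7.73 at Gm30875, -5.85 at Rnf213, -13.2 at Dnah11 and -7.32 at 1700113H08Rik. At Rnf213, Dnah11 and 1700113H08Rik that bin holds the leading CpG, so its difference includes the CpG that chose the locus. The other CpGs of that bin differed by 6.77 and -0.42 points at Rnf213, -12.4 and 32.3 at Dnah11 and -0.63 and 0.55 at 1700113H08Rik. Widths without the leading CpG were not computed. No bin within these stretches separated the groups. Over the 6 loci, 6 of 788 bins (0.761%) had every Susceptible library under every Control library, against 1.32% of all 200-bp bins.

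Over each whole locus the groups overlapped at all 6, with differences of -7.27 points at Gm30875, -4.30 at Gpr153 and smaller ones at the other 4. Gpr153 read 51.4% ± 3.30 in Control and 47.1% ± 4.14 in Susceptible libraries, Gm30875 55.0% ± 5.52 and 47.7% ± 5.37, and Arntl2 78.6% ± 1.12 and 77.7% ± 1.52. Rnf213 read 78.1% ± 2.01 and 76.5% ± 0.950, Dnah11 83.3% ± 0.892 and 82.8% ± 0.542, and 1700113H08Rik 84.5% ± 1.56 and 83.1% ± 0.843. With cytosines of at least 20 calls only, the groups no longer overlapped at Gm30875 (52.4% and 38.1%, -14.3 points) or Gpr153 (53.8% and 47.9%, -5.88 points). At Gm30875 the difference was -1.12 points with each CpG weighted equally and -1.47 over CpGs listed in all 9 libraries, with overlap in both. Over cytosines that both libraries of a pair listed, it was -0.80 points at Gpr153 and 0.77 at Gm30875. The Susceptible library was lower in 9 of 20 pairs at each. Without Susceptible 7 the Gpr153 difference was -2.24 points, and without Control 5 it was -2.84. Among all gene loci the differences over all calls sat at the 4.70th percentile for Gpr153, the 0.942nd for Gm30875 and between the 23.2nd and the 46.0th for the other 4. Other genes lie partly within these spans: Acot7 and Hes3 with Gpr153, Mir1932, A930037H05Rik and Endov with Rnf213, Cdca7l with Dnah11, and 4930555G07Rik with 1700113H08Rik.

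Other tiles of the loci moved in both directions. Of 418 tiles, 233 read lower and 185 higher in Susceptible libraries, and 6 (1.44%) read lower and 3 higher with no overlap. Of all 1041809 tiles, 0.960% read lower and 6232 tiles higher with no overlap. Since this contrast chose the members, nothing is read from the counts at the loci. Besides those at the leading features of Gpr153, Gm30875 and Dnah11, the tiles that read lower were chr11:119397001-119398000 in Rnf213 (98.7% and 93.4%), chr12:117947001-117948000 in Dnah11 (93.1% and 80.6%) and chr10:87171001-87172000 in 1700113H08Rik (97.7% and 91.4%). These 3 kept separate groups with CpGs weighted equally, with differences of -5.28, -14.2 and -5.69 points, whereas the tiles at the leading features overlapped, at -2.12 points in Gpr153, -3.21 in Gm30875 and -10.03 in Dnah11, where the difference with calls summed was -10.2. Of the tiles that read higher, chr11:119407001-119408000 in Rnf213 went from 88.5% to 95.4% and kept separate groups with equal weights. Of 2293 single CpGs, 38 (1.66%) read lower and 5 higher with no overlap, close to the 1.46% lower over all tested CpGs, where 18277 of 5627449 read higher with no overlap.

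The features just outside the selection resembled the members. The next tile by p among those lower in Susceptible libraries, in Fam228b at chr12:4768001-4769000, read 24.9% ± 11.6 and 5.17% ± 4.12. Gm30875 itself held the fourth such tile, chr11:79974001-79975000, at 43.9% ± 3.46 and 26.5% ± 6.91. The next gene end, at Ptgr2, read 31.8% ± 1.80 and 23.4% ± 1.53, after Arntl2 as the last inside. Of the single CpGs, 1700113H08Rik was the last inside, and the CpGs after it, at chr9:72414158 and chr10:53520441, read 100% in every Control library and 67.7% ± 6.34 and 67.4% ± 8.70 in Susceptible libraries; neither lies in a gene of the table. Among gene ends, 373 of 43264 (0.862%) had every Susceptible library under every Control library.

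The gene ends most like each member in level are given as a description. Over the 9 libraries and 31087 gene ends with an SD of at least 2 points, the Gpr153 tile was most like the ends of Gm8415 (Pearson's r = 0.973) and Arntl2 (r = 0.957). Arntl2 was most like Gm41818 (r = 0.966) and 4930573C08Rik (r = 0.952), and Gm30875 most like Gm39293 (r = 0.955) and Ecel1 (r = 0.944). Rnf213 and Dnah11 shared Scgb2b24 (r = 0.961 and 0.935) and Gtpbp3 (r = 0.935 and 0.933), and 1700113H08Rik was most like Ssxb7 (r = 0.960) and Gm23099 (r = 0.951). These are the highest values among all ends compared, over the same 9 libraries and 2 groups, so they include the group difference that chose the members; likeness within a group was not computed. At Scgb2b24, for example, the means were 76.1% ± 1.18 and 68.8% ± 2.23.

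Relatives of the members were read at their CpG-richer gene ends. None of the 64 measured genes of 4 family and pathway lists passed the adjusted threshold in the quasi-binomial fit across all gene ends. At an unadjusted p under 0.05, 2.45% of all gene ends read lower and 2.17% higher, and 22507 of all 43264 gene ends had the lower mean in Susceptible libraries. Of 14 axonemal dynein heavy chains, relatives of Dnah11, 9 read lower in Susceptible libraries, 0 at an unadjusted p under 0.05, with a median of -0.75 points against -0.0799 over all gene ends. Dnah7c, for example, read 20.1% ± 8.16 and 15.2% ± 4.19, and Dnah1 92.0% ± 3.41 and 94.2% ± 1.44.

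Of 14 clock genes, the pathway of Arntl2, 8 read lower (median -0.0545 points). Rora, a nuclear receptor of the clock's second loop, was lower at the unadjusted level, at 3.25% ± 1.01 and 1.90% ± 0.442, with overlapping groups. Its adjusted p was 0.988 in the quasi-binomial fit with dispersion moderated by limma. Clock, the partner in the ARNTL complexes, read 3.95% ± 1.01 and 5.36% ± 0.949. Of 22 orphan receptors, relatives of Gpr153, 9 read lower (median 0.43 points). Gpr12 was higher at the unadjusted level, at 53.2% ± 4.47 and 64.4% ± 9.56, with overlapping groups. Of 14 measured interferon-stimulated genes, listed because interferon induces Rnf213, 11 read lower (median -2.07 points) and 0 reached an unadjusted p under 0.05. Herc6 read 8.21% ± 10.7 and 2.85% ± 0.419, and Rsad2, an antiviral enzyme, 89.3% ± 2.62 and 92.2% ± 2.37.

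Gene ends of striatal projection neuron markers were low, as is common for CpG-rich starts, with a median of 4.08% to 7.47% in Control and 6.59% to 8.80% in Susceptible libraries over 13 genes. Those of 10 neuronal markers had medians of 2.34% to 5.63% and 2.83% to 4.98%. All 9 astrocyte markers read lower in Susceptible libraries (median -3.61 points; medians of 21.4% to 35.9% in Control and 18.8% to 33.1% in Susceptible libraries), as did 8 of 9 microglial markers (median -0.78), 7 of 9 ependymal (median -1.74) and 6 of 8 endothelial (median -0.44). Of 10 oligodendrocyte markers 5 read lower (median 0.00823), as did 5 of the neuronal (median -0.0906) and 7 of the 13 striatal neuron markers (median -0.16). Over all gene ends, 22507 of 43264 read lower, with a median of -0.0799 points. At an unadjusted p under 0.05, 2 of 9 ependymal and 1 of 8 endothelial markers read lower and 1 of 13 striatal neuron markers higher. The other lists had 0, and the shares over all gene ends were 2.45% lower and 2.17% higher. Of the microglial markers 1 read lower with no overlap of groups, against 0.862% of all gene ends. None of the 68 measured markers passed the adjusted threshold, and their part in the differences at the 6 loci was not tested.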

How the data were processed

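Whole-genome bisulfite libraries of nucleus accumbens were measured in 5 Control and 4 Susceptible samples. The deposited files give, per the file headers, a count of calls (coverage) for each cytosine of a CpG and the percent of calls that were C or T. The submitters' processing notes name Bismark, Bowtie and Picard and the build mm10; settings not given in the sources used here. Only cytosines with at least 10 calls are listed, and whether duplicate reads were removed was not stated either.

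Methylated calls were coverage × percent C / 100, rounded, strands added per CpG. Tiles and gene ends needed 3 CpGs and 20 calls in every library, CpGs 5 calls and 200-bp bins 1 CpG and 20 calls. Features of autosomes and X were fitted with a quasi-binomial model of group (closed form, dispersion moderated with limma 3.58.1 in R 4.3.3 and kept at 1 or more; Benjamini-Hochberg), tested on simulated data. Gene bounds and promoter sequences are RefSeq, GRCm38.p6, the same build as mm10. Members and lists were chosen with earlier results of these data known. Named genes are the members, their neighbours, the next features by p, the 2 most alike gene ends of each and, per list, at most 2 genes of smallest p in each direction. The strand gap was planned for 6 members and could be had for 3. Alternatives were other filters, weightings, strands, scalings, fits and leaving out each library. Numbers 2 and 3 occur in both groups.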

Additional observations from a re-analysis of the deposited data

Results flagged for a closer look

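Libraries that stood apart from the rest of their group are listed here, by a gap test that chance alone passes in about 1 of 20 groups; 6 of 66 groups passed. At the Gm30875 window Control 3 read 54.0%, against 48.2% for the next Control library. At the 1700113H08Rik CpG Susceptible 6 read 48.1%, against 77.8% for the next. Over the whole Gpr153 locus Control 5 read 57.2%, against 50.5%, and Susceptible 7 read 40.9%, against 48.9%. At Arntl2, Susceptible 2 held 48.7% of the window's calls on CpGs under 50%, against 47.2%. The strand gap at Gpr153 was -10.05 points in Susceptible 2, against -24.4 in the next library.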

How the results depend on the processing

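Differences are in points, in the order Gpr153, Arntl2, Gm30875 where 3 are given. With cytosines of at least 20 calls they were -22.1, -18.3 (now with overlap) and -26.2. With CpGs weighted equally they were -2.12, 0.17 and -3.29. Over cytosines listed in all 9 libraries Gpr153 stayed at -14.05 with the groups apart, Arntl2 was -3.48 and Gm30875 -0.979; these weighted equally gave -0.52, 1.66 and 3.37. Common weights gave -3.30, 0.37 and 0.61, and cytosines shared by library pairs, each weighted equally, -2.08, -0.51 and 0.79. The reverse strand of Gpr153 gave -9.13. The equal-weight and pair results change where the calls count, not which libraries enter.

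Over whole loci, signs turned with cytosines listed in all 9 libraries weighted equally (Gm30875 1.72, Rnf213 0.17), with common weights (0.33 and 0.0739) and with shared cytosines (Gm30875 0.77).

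The stretch was 800 bp (Gpr153), 400 (Arntl2), 2000 (Rnf213) and 400 (1700113H08Rik) at a limit of 0 points. At -10 points it was 200 bp at Dnah11 and 0 at Gpr153, Gm30875, Rnf213 and 1700113H08Rik. With 20 calls it was 400 at Gpr153 and 0 at Rnf213.

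At the loci 11 tiles were lower without overlap under a looser filter and 2 with 20 calls. Over all tiles these numbers were 20349 of 1708912 and 4018 of 433494. Since this contrast chose the members, nothing is read from the counts at the loci. With listed cytosines in place of calls, Gm30875 rose by 0.544 per 1000000 (exact permutation, adjusted p = 0.0476; from 0.600 to 1 over its other alternatives). Listed cytosines at Gm30875 also enter the level that chose it, so nothing is read from this p. The causes were not tested.

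Leaving out each library gave -14.0 to -12.6 at Gpr153, -15.4 to -12.5 at Arntl2, -19.0 to -13.9 at Gm30875, -34.2 to -28.3 at Rnf213, -29.4 to -23.0 at Dnah11 and -31.8 to -20.9 at 1700113H08Rik. Stretches ran from 200 to 400 bp (Gpr153, Dnah11), 0 to 200 (Arntl2, Gm30875) and 0 to 1000 (Rnf213, 0 without Control 4, Control 8 or Susceptible 6). Called tiles ran from 0 to 1 (1 without Control 4) and gene ends from 0 to 1 (1 without Control 4 or Susceptible 7).

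For libraries numbered 2 and 3 in both groups, the correlations of deviations were 0.0258 and -0.0171. Control and Susceptible libraries with different numbers gave -0.0954 to 0.132. What the numbers stand for is not given in the sources used here, so whether they mark a pairing cannot be told. The replicate block was fitted to the 4 libraries numbered 2 and 3 only, and so with the other 5 dropped as well. It gave -11.1 at Gpr153 and 1.02 over the Arntl2 locus. It called 427 of 1041809 tiles and 0 of 43264 gene ends. This fit has nearly as many terms as libraries, so its calls rest on dispersion borrowed across features. Nothing is read from them.

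With 10 or more calls a cytosine, depth limits single CpGs, as the intervals above show.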
